A study of Homo sapiens with 6 samples.

Results

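The genes described here encode the enzymes that make fatty acids and join them into triglycerides, wax esters and sterol esters, with SREBF1 and THRSP as regulators. They were chosen by name, 36 genes of the 58735 in the deposited table, and every one of them was found there. Expression was read by RNA-seq in SZ95, an immortalised human sebaceous gland cell line, transfected with plasmid and labelled 24 h. One group of 3 libraries received a mock plasmid (genotype WT in the labels), and the other group of 3 received a TRPV3-overexpression plasmid (genotype TRPV3 overexpression). The study's design text asks what TRPV3, a calcium-permeable, warmth-activated cation channel, does in sebocyte inflammation, and it calls the replicates biological. All 6 libraries come from 1 transfected cell line, and the sources used here do not name the promoter of the plasmid.

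Sebocytes fill with lipid and release it as sebum by bursting. Human sebum is rich in triglycerides, wax esters and squalene. Cytosolic acetyl-CoA, made from citrate or acetate, is carboxylated to malonyl-CoA and assembled into palmitate by fatty acid synthase. Elongases lengthen the chain, desaturases insert double bonds, and acyl-CoA synthetases activate free fatty acids for use. Acyltransferases then build glycerides, while reductases make the fatty alcohols of waxes. The transcription factor SREBP-1, the product of SREBF1, drives many of these genes, often together with the CCAAT-binding factor NF-Y.

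TRPV3 itself was at 0.437, 0.359 and 0.415 FPKM (a read count divided by gene length and library depth) in mock replicates 1 to 3, and at 536, 671 and 738 FPKM in TRPV3 replicates 1 to 3. The values of every gene below follow that order. Reads assigned to genes, recovered from the FPKM, numbered between 16015998 and 18365785 per library. The depth by which the FPKM were divided differed from this number by 4.78% in mock replicate 3 and by -3.93% in TRPV3 replicate 1. In the other libraries it differed by 0.02% to 1.33%. TRPV3 replicate 1 differed from the other TRPV3 libraries in a way that followed gene length, as described below. Mock replicate 3 held at least 1 read for 34467 genes, against 22311 to 23072 in the other 5 libraries, and 9477 genes had reads in that library alone. The sebocyte-associated keratin KRT7 (500 to 655 FPKM) and the mucin MUC1 (19.1 to 27.2 FPKM) were present in every library. Of 13 sebocyte markers, 6 lay under 1 FPKM in every library, and of these FABP4 and AWAT2 had no read. The basal keratin KRT5 was also present (144 to 174 FPKM), and the 6 keratinocyte markers summed to between 160 and 192 FPKM with mock and between 167 and 180 FPKM with TRPV3. Marker sums of fibroblasts, adipocytes, immune cells and melanocytes reached at most 2.92, 2.59, 1.80 and 1.24 FPKM in any library. In each of the fibroblast, adipocyte and immune cell lists 1 marker averaged at least 1 FPKM, and in the melanocyte list 0 did. Among the other markers of these lists, ADIPOQ had no read, and PTPRC, PDGFRA and TYR had reads in mock replicate 3 only.

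Promoter sequences of 33 of the 36 genes were found in the RefSeq table (GRCh38.p14; 250 bases before to 50 after each start). The NF-Y box CCAAT, read on both strands, stood in a promoter of 20 of these 33 genes (60.6%), beside 43.0% of the tested genes with a promoter in the table and 39.7% of all its genes. The SREBP element TCACNCCAC, also read on both strands and not overlapping CCAAT, stood in 1 of the 33, ACSL1, against 1.46% of the tested genes. Such matches describe letters and not binding, and genes with several starts have several windows. Sequences are shown for the most abundant member (SCD), the member with the largest difference between groups (ELOVL3) and the only member with the SREBP element (ACSL1). Capitals mark the motifs, and the SREBP element of ACSL1 and the second motif of ELOVL3 lie on the opposite strand.
SCD (chr10:100346983-100347076, plus strand): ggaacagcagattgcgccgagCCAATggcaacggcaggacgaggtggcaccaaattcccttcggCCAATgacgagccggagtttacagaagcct
ELOVL3 (chr10:102226200-102226298, plus strand): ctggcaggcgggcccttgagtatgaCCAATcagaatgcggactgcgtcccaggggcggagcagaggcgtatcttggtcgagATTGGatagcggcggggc
ACSL1 (chr4:184805779-184805803, minus strand): gtggagcaGTGGGGTGActttgctg
The CCAAT boxes of SCD begin 229 and 186 bases before the RefSeq start, and the motifs of ELOVL3 begin 74 and 18 bases before it. The ACSL1 window belongs to 1 of several starts of that gene and reaches into an exon of another ACSL1 transcript.

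No gene of the pathway passed the test between TRPV3 and mock. Of the 36 genes, 32 had a mean of at least 1 FPKM over the 6 libraries and were tested with limma on log2(FPKM + 1), and 0 had an adjusted p under 0.05. Over all 12177 genes tested the call rate was 0.0411%, so a count of 0 among 32 is near that background. At an unadjusted p under 0.05 there was 1 member, ELOVL3, against 4.48% of all genes, and limma-voom on the read counts recovered from the FPKM also called 0 members (0.0493% of all genes), with 1 at an unadjusted p under 0.05 (4.34% of all genes). The members' median log2 fold change was -0.01, beside 0.01 for all genes tested. Of the 32 members, 12 lay above 0 (53.0% of all genes). For 30 of the 32 the limma 95% interval lay inside a 1.5-fold change either way, and for all 32 inside a 2-fold change; these intervals are per gene, unadjusted and on the log2(FPKM + 1) scale, which compresses low genes. By voom without TRPV3 replicate 1 the interval of ELOVL3 ran from -0.05 to 1.26, past a 2-fold change. Among the 32 tested members, the TRPV3 libraries were all above the mock range in 1, ACSS2 (9.49% of all genes), and below in 1, AGPAT3 (5.39% of all genes). In bulk RNA, fewer cells with a transcript and less of it per cell cannot be told apart, and limma's p-values reflect the spread between these 6 libraries.

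**Figure D1:**
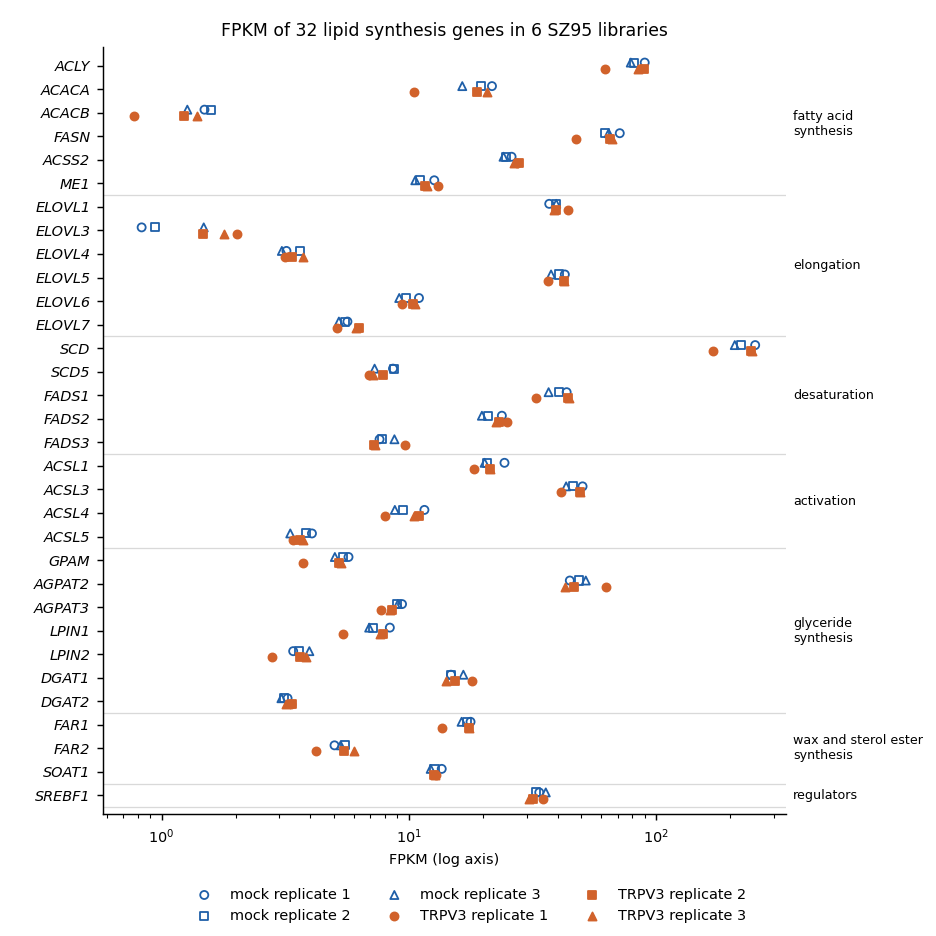
FPKM (log axis) of the 32 tested genes in each library, ordered by role, with open blue symbols for mock and filled orange symbols for TRPV3 replicates. SCD lies highest, between 170 and 252 FPKM, and TRPV3 replicate 1 (filled circles) is the lowest of the 6 libraries in 18 of the 32 genes.

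The first enzymes of fatty acid synthesis were abundant, and their spread came mainly from 1 library. ACLY, which splits citrate into cytosolic acetyl-CoA (ENSG00000131473, chromosome 17), was at 90.1, 81.5 and 79.1 FPKM across mock and 62.5, 89.9 and 84.7 FPKM across TRPV3 libraries. Only TRPV3 replicate 1 lay outside the mock range. FASN, the fatty acid synthase (ENSG00000169710, chromosome 17), was at 71.4, 62.1 and 64.4 FPKM under mock and 47.7, 65.0 and 66.6 FPKM under TRPV3. It showed the same low first TRPV3 library, with the other 2 inside the mock range. The log2 fold changes on FPKM + 1 were -0.09 for ACLY (SE 0.15) and -0.15 for FASN (SE 0.14), with limma adjusted p of 0.819 and 0.755. Without TRPV3 replicate 1 they were 0.06 and -0.0021. With the gene-length trend of each library removed they were -0.095 and -0.073.

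ACACA, the cytosolic acetyl-CoA carboxylase that commits carbon to fatty acids (ENSG00000278540, chromosome 17), had the widest interval of the group. It was at 21.7, 19.7 and 16.5 FPKM under mock and 10.5, 18.9 and 20.7 FPKM under TRPV3. The difference of -0.24 (SE 0.24, 95% interval -0.81 to 0.32, limma adjusted p = 0.755) turned to 0.04 without TRPV3 replicate 1. With the length trend removed it was -0.12. ACACB, the mitochondria-associated carboxylase whose product restrains fatty acid oxidation, was at 1.49, 1.58 and 1.27 FPKM under mock and 0.774, 1.23 and 1.39 FPKM under TRPV3. Its difference was -0.21 (SE 0.14, limma adjusted p = 0.755), and -0.08 without that library. With all libraries it was -0.36 with a pseudocount of 0.1, -0.39 by voom and -0.08 with the length trend removed. By voom without TRPV3 replicate 1 it was -0.13. ACACA held 92.6% to 93.9% of the FPKM that the 2 carboxylases had together in every library.

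ACSS2 and ME1 stood a little higher with TRPV3, neither past the test. ACSS2, which makes acetyl-CoA from acetate (ENSG00000131069, chromosome 20), was at 26.1, 24.7 and 24.2 FPKM under mock and 27.3, 28.0 and 26.6 FPKM under TRPV3. Its 2 groups did not overlap, and the difference was 0.12 both with all libraries (SE 0.07, 95% interval -0.04 to 0.29, limma adjusted p = 0.755) and without TRPV3 replicate 1, and 0.03 under TPM scaling. ME1, the malic enzyme that supplies NADPH for the synthase, averaged 11.5 ± 1.07 FPKM for mock and 12.2 ± 0.819 FPKM for TRPV3 (mean ± SD, n = 3 per group here and below). Of the 6 genes of this step, 2 had a fold change above 0 with all libraries and 4 without TRPV3 replicate 1.

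The elongases were the one step in which every tested gene had a fold change above 0, and in 5 of the 6 it was smaller than its SE. ELOVL1, which extends saturated chains of very great length, was at 37.0, 39.3 and 39.5 FPKM under mock and 44.0, 39.4 and 38.8 FPKM under TRPV3. ELOVL5, an elongase of polyunsaturated fatty acids, was at 42.8, 40.5 and 37.7 FPKM under mock and 36.5, 42.6 and 42.7 FPKM under TRPV3. In both genes the groups overlapped, and the first TRPV3 library was the highest of all 6 for ELOVL1 and the lowest for ELOVL5. Their log2 fold changes were 0.07 (SE 0.08) and 0.0075 (SE 0.09). With the gene-length trend of each library removed, only 3 of the 6 elongases lay above 0.

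ELOVL3, an elongase tied in mice to sebum and brown fat lipids (ENSG00000119915, chromosome 10, 102226328 to 102229589, plus strand), had the largest difference of the group from few reads. It was at 0.831, 0.944 and 1.48 FPKM under mock and 2.03, 1.47 and 1.79 FPKM under TRPV3, from between 20 and 49 reads per library. Mock replicate 3, just above TRPV3 replicate 2, was the only mock library to reach the TRPV3 range. The log2 fold change was 0.41 (SE 0.15, 95% interval 0.07 to 0.76, limma adjusted p = 0.755), and 0.34 without TRPV3 replicate 1. It was 0.68 with a pseudocount of 0.1, 0.71 by voom and 0.60 by voom without that library, with adjusted p of 0.754, 0.738 and 0.706. ELOVL3 has 1371 bases of exon, and with the length trend removed the difference was 0.28.

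The differences of the remaining elongases were under 0.1 on the log2 scale. ELOVL6, which lengthens palmitate to stearate, averaged 9.98 ± 0.941 FPKM for mock and 10.1 ± 0.675 FPKM for TRPV3. ELOVL4, which makes the longest chains in skin and retina, was at 3.30 ± 0.303 and 3.42 ± 0.279 FPKM. ELOVL7 was at 5.65, 5.53 and 5.22 FPKM under mock and 5.10, 6.31 and 6.12 FPKM under TRPV3, so that replicates 2 and 3 lay above all mock libraries and replicate 1 below them. Without replicate 1 its difference was 0.16, at a limma adjusted p of 0.677.

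SCD, the stearoyl-CoA desaturase that makes oleate and palmitoleate (ENSG00000099194, chromosome 10), was the most abundant gene of the pathway. It was at 252, 222 and 208 FPKM under mock and 170, 243 and 245 FPKM under TRPV3. Replicates 2 and 3 of TRPV3 lay inside the mock range and replicate 1 below it. The log2 fold change was -0.07 (SE 0.16, 95% interval -0.45 to 0.32, limma adjusted p = 0.882), and 0.11 without replicate 1. SCD5, a second stearoyl-CoA desaturase that is absent from rodents, was at 8.64, 8.69 and 7.28 FPKM under mock and 6.92, 7.85 and 7.16 FPKM under TRPV3, a difference of -0.14 (SE 0.09, limma adjusted p = 0.755) with overlapping groups. SCD held 96.1% to 97.2% of their summed FPKM in every library.

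The FADS genes lie side by side on chromosome 11 and ranked the TRPV3 libraries differently. FADS1, the delta-5 desaturase of polyunsaturated fatty acids, was at 43.5, 40.7 and 36.8 FPKM under mock and 32.8, 44.1 and 44.4 FPKM under TRPV3. FADS2, the delta-6 desaturase that in sebocytes makes sapienate, was at 23.8, 21.0 and 19.8 FPKM under mock and 24.9, 23.2 and 22.6 FPKM under TRPV3. FADS3, which desaturates sphingoid bases, was at 7.62, 7.83 and 8.75 FPKM under mock and 9.67, 7.21 and 7.31 FPKM under TRPV3. TRPV3 replicate 1 was thus the lowest of 6 libraries for FADS1 and the highest for FADS2 and FADS3. FADS2 per FADS1 was 0.547, 0.515 and 0.537 across mock and 0.759, 0.526 and 0.509 across TRPV3 libraries. FADS2 shares 49 exonic bases with FEN1 on the same strand, a gene with up to 5915 reads in a library against at least 3749 for FADS2. FADS1 and FADS2 share 490 exonic bases on opposite strands, and the sources used here do not say whether reads were counted by strand. Their log2 fold changes were -0.0079 and 0.13, and without replicate 1 they were 0.13 and 0.09.

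**Figure D2:**
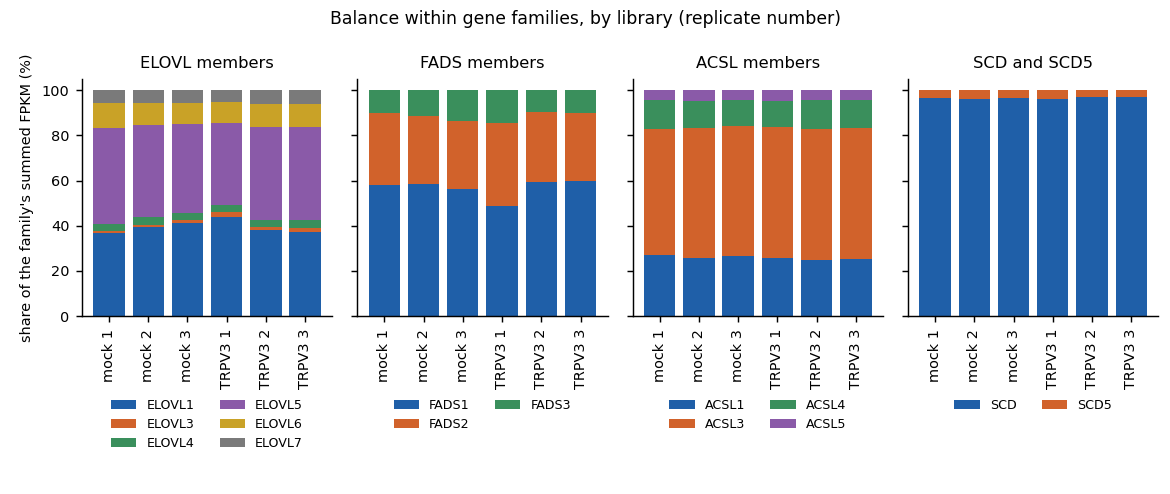
Share (%) of each family's summed FPKM held by its members, 1 bar per library, for the elongases, the FADS desaturases, the acyl-CoA synthetases and the stearoyl-CoA desaturases. The order of the members is the same in all libraries except that ELOVL1 exceeds ELOVL5 in mock replicate 3 and TRPV3 replicate 1, and FADS1 is at 48.7% in TRPV3 replicate 1.

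The acyl-CoA synthetases stood in the same order in all 6 libraries. ACSL3, found on the endoplasmic reticulum and on lipid droplets, was at 50.5, 46.3 and 43.3 FPKM under mock and 41.2, 49.5 and 49.1 FPKM under TRPV3. ACSL1, a major synthetase of fat-storing tissues, was at 24.4, 20.8 and 20.3 FPKM under mock and 18.3, 21.3 and 21.3 FPKM under TRPV3. For both, replicate 1 was the lowest library and the other TRPV3 libraries lay inside the mock range. ACSL3 held 55.8% to 58.1% and ACSL1 24.9% to 27.0% of the family's FPKM, and the ACSL1 share was lower in every TRPV3 library (24.9% to 25.8%) than in any mock library (25.8% to 27.0%), by a margin of 25.81% against 25.83%. ACSL4, which prefers arachidonate, was at 9.94 ± 1.45 and 9.85 ± 1.58 FPKM, and ACSL5 at 3.73 ± 0.380 and 3.59 ± 0.169 FPKM. ACSL5 shares 144 exonic bases with ZDHHC6 on the opposite strand, a gene with up to 1349 reads in a library against at least 254 for ACSL5. The log2 fold changes of the 4 synthetases lay between -0.10 and -0.0057, and the lowest limma adjusted p was 0.763.

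Among the enzymes of glyceride synthesis, GPAM and AGPAT2 differed in opposite directions in TRPV3 replicate 1. GPAM, the mitochondrial acyltransferase that starts the path, was at 5.71, 5.43 and 5.02 FPKM under mock and 3.73, 5.21 and 5.34 FPKM under TRPV3. AGPAT2, which makes phosphatidic acid and is mutated in a congenital lipodystrophy, was at 44.8, 48.9 and 52.0 FPKM under mock and 63.0, 46.6 and 42.8 FPKM under TRPV3. Replicate 1 was the lowest of 6 for GPAM (9808 exonic bases) and the highest for AGPAT2 (1798 exonic bases). The difference of -0.16 in GPAM (SE 0.13, limma adjusted p = 0.755) was -0.02 without that library, and the difference of 0.05 in AGPAT2 (SE 0.15, limma adjusted p = 0.914) was -0.12. With the length trend removed the differences were -0.07 in GPAM and -0.09 in AGPAT2.

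AGPAT3, a related acyltransferase, was at 9.40, 8.99 and 9.04 FPKM under mock and 7.70, 8.59 and 8.41 FPKM under TRPV3. All TRPV3 libraries lay below all mock libraries, by -0.14 on the log2 scale (SE 0.07, 95% interval -0.31 to 0.04, limma adjusted p = 0.755). Leaving out TRPV3 replicate 1 gave -0.09, and removing the length trend gave -0.03. LPIN1 and LPIN2, the phosphatidate phosphatases that yield diacylglycerol, were at 7.49 ± 0.789 against 6.99 ± 1.34 FPKM and at 3.66 ± 0.281 against 3.42 ± 0.551 FPKM. DGAT1, which adds the last acyl chain of triglycerides, was at 15.4 ± 1.03 and 15.9 ± 1.93 FPKM. DGAT2, an unrelated enzyme for the same step, was at 3.14 ± 0.0898 and 3.30 ± 0.108 FPKM, and DGAT1 held 81.7% to 84.5% of their summed FPKM. DGAT1 shares 139 exonic bases with HSF1 on the opposite strand, a gene with up to 3705 reads in a library against at least 997 for DGAT1.

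Of the wax pathway the alcohol-making reductases were present, and the dedicated wax synthases had at most 1 read in any library. FAR1, a reductase that makes fatty alcohols, was at 17.8, 17.2 and 16.4 FPKM under mock and 13.6, 17.5 and 17.6 FPKM under TRPV3. FAR2, its relative, was at 5.28 ± 0.263 and 5.23 ± 0.916 FPKM. It shares 173 exonic bases with ERGIC2 on the opposite strand, a gene with up to 951 reads in a library against at least 402 for FAR2. SOAT1, which esterifies cholesterol with fatty acids, was at 12.9 ± 0.677 and 12.8 ± 0.114 FPKM. The log2 fold changes of these genes lay between -0.08 and -0.0065, and the lowest limma adjusted p was 0.805.

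The 4 genes under the filter lay under it in both groups. AWAT2, a wax synthase of sebaceous glands, had 0 reads in all 6 libraries; 3 reads, the count that 0 still allows, correspond to between 0.0671 and 0.0754 FPKM, for counting error only. AWAT1, the other wax synthase, had 1 read in all, in mock replicate 3. MOGAT1, which makes diacylglycerol from monoacylglycerol, had 2, 1 and 2 reads under mock and 0 under TRPV3 in each library. THRSP, whose protein tracks fat synthesis in liver and adipose tissue, had 0, 1 and 3 reads with mock and 0, 2 and 0 with TRPV3. A difference between groups was not detectable for these genes at this depth. Mock replicate 3, which held reads of 9477 genes seen in no other library, gave the AWAT1 read and 3 of the 6 THRSP reads.

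SREBF1, the gene of SREBP-1 (ENSG00000072310, chromosome 17), was at 33.7, 32.7 and 35.8 FPKM under mock and 34.9, 31.9 and 30.6 FPKM under TRPV3. TRPV3 replicates 2 and 3 lay below all mock libraries and replicate 1 inside their range. The log2 fold change was -0.07 (SE 0.08, 95% interval -0.26 to 0.13, limma adjusted p = 0.778), and -0.12 without replicate 1 (limma adjusted p = 0.733). With the length trend removed it was -0.0092. SREBF1 shares 556 exonic bases with RAI1 on the opposite strand, a gene with at most 2726 reads in a library against at least 4259 for SREBF1.

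**Figure D3:**
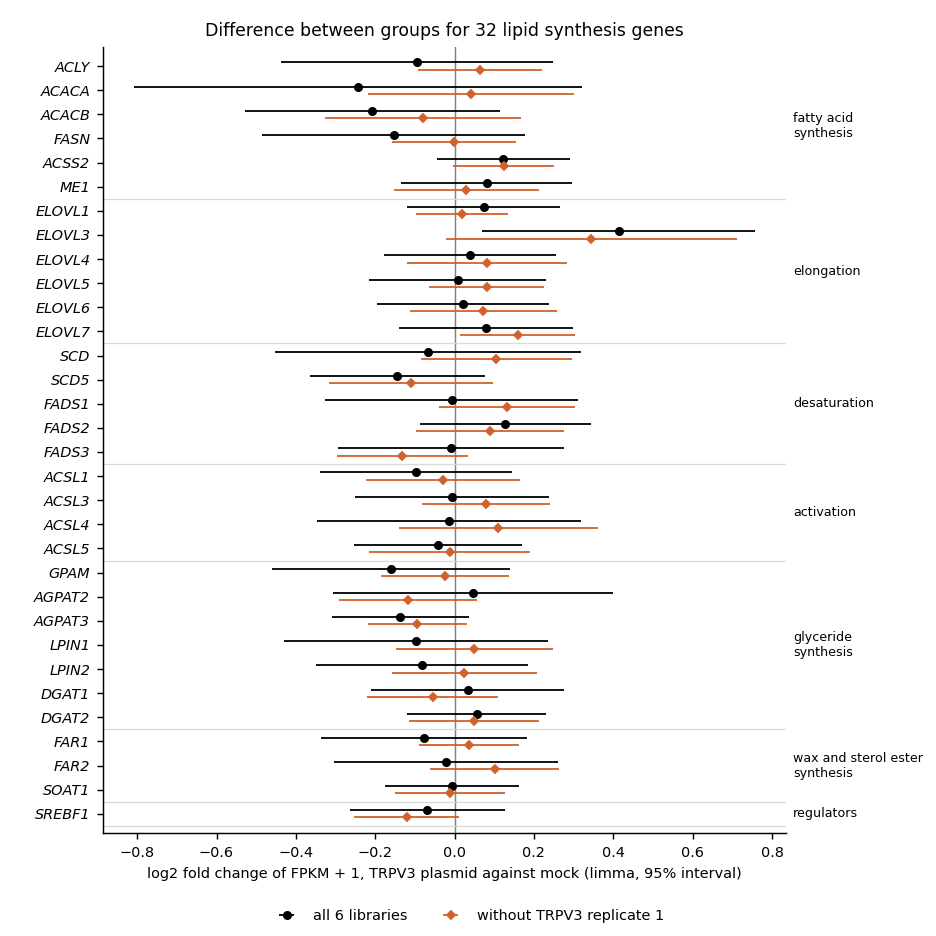
Log2 fold change of FPKM + 1, TRPV3 plasmid against mock, with limma's 95% interval for the 32 tested genes, from all 6 libraries (black circles) and without TRPV3 replicate 1 (orange diamonds). With all libraries the interval of ELOVL3 alone leaves out 0, and without replicate 1 that of ELOVL7 alone does.

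TRPV3 replicate 1 set much of the spread within the group. It was the lowest of the 6 libraries in 18 of the 32 genes (56.2%, against 35.9% of all genes tested) and the highest in 7 (21.9%, against 40.9%). Mock replicate 1 was the highest in 15 of them (46.9%, against 20.7% of all genes) and mock replicate 3 the lowest in 8. The median difference of the members between TRPV3 replicate 1 and the mean of the other TRPV3 libraries was -0.18 on the log2 scale, and over all genes it was 0.02. Summed over all 36 genes, the level was 910, 841 and 816 FPKM across mock and 747, 888 and 878 FPKM across TRPV3 libraries.

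The departure of that library ran with gene length. Across the 32 genes its difference from the other TRPV3 libraries had Pearson's r = -0.57 with log2 exon length (Spearman's rho = -0.50), and r = -0.35 across all 12177 genes; these are descriptions across genes that share the same libraries. The tested members are longer than most genes, with a median of 6350 against 4593 exonic bases. Of the 9 members over 8000 bases the median difference was -0.41, beside -0.30 for all such genes, and the 2 members of up to 2000 bases had 0.35, beside 0.33. Between these lengths the members lay below other genes of their length: 0.01 beside 0.20 for the 4 of 2000 to 4000 bases, -0.17 beside -0.0026 for the 8 of 4000 to 6000, and -0.21 beside -0.15 for the 9 of 6000 to 8000. SCD and ACLY did not follow that line: with 5362 and 5217 bases they differed by -0.52 and -0.48 in replicate 1. FADS2, with 11026 bases, was at 0.12. Mock libraries set against the others of their group in the same way had Pearson's r of 0.55, -0.02 and -0.51 across the 32 genes (replicates 1 to 3). Across all genes these were 0.21, -0.07 and -0.13. With the length trend of each library removed, 13 of the 32 members lay above 0 (49.8% of all genes). The members' median log2 fold change was then -0.02.

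**Figure D4:**
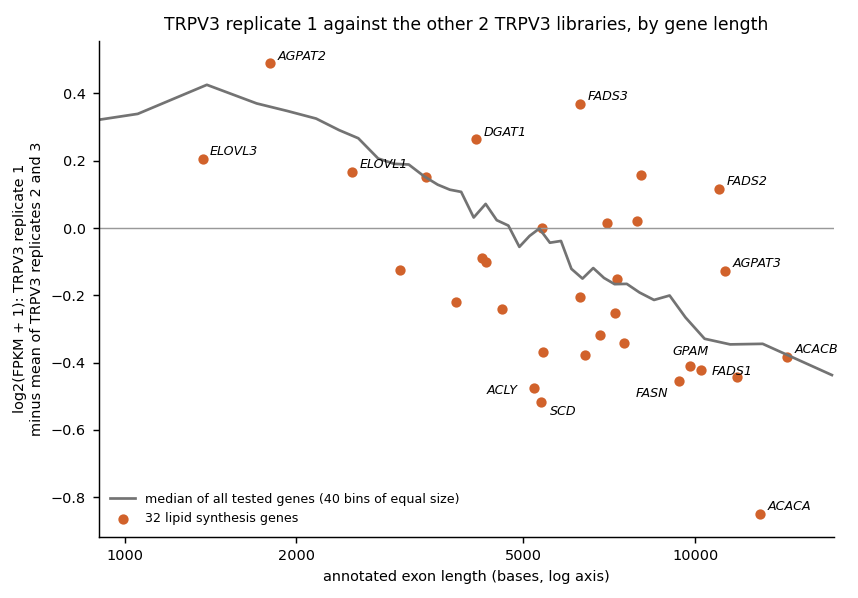
Difference on the log2(FPKM + 1) scale between TRPV3 replicate 1 and the mean of TRPV3 replicates 2 and 3 against annotated exon length (bases, log axis), for the 32 tested genes (points) and as the median of all tested genes in 40 bins (grey line). ACACA lies lowest at -0.85 and AGPAT2 highest at 0.49, while SCD and ACLY lie well under the grey line at their length.

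Without TRPV3 replicate 1 the members still gave 0 calls by limma (0.0657% of all genes called) and by voom (0.55% of all genes called). Of the 32 genes, 12 changed sign, the median was 0.04 beside 0.0084 for all genes, and 20 lay above 0 (53.7% of all genes). At an unadjusted p under 0.05 there was 1 by limma, ELOVL7 (7.06% of all genes), and 4 by voom, namely FADS1, ELOVL7, ACSS2 and SREBF1 (7.23% of all genes). With only 2 TRPV3 libraries against 3, the groups did not overlap in 3 genes above the mock range, ACSS2, ELOVL7 and FADS1 (14.1% of all genes), and in 3 below it, FADS3, AGPAT3 and SREBF1 (10.1% of all genes).

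Ratios within a library set genes of this pathway against each other free of its depth. They are not free of a trend with gene length: ACACA has 13008 exonic bases, FASN 9364 and ELOVL6 7297. The part of that trend in the ratios was not tested. SCD per FASN was 3.53, 3.57 and 3.24 across mock and 3.56, 3.74 and 3.67 across TRPV3 libraries, with 2 of the latter above the mock range. ACLY per FASN was 1.26, 1.31 and 1.23 with mock and 1.31, 1.38 and 1.27 with TRPV3. ACACA per FASN was 0.304, 0.316 and 0.256 with mock and 0.220, 0.290 and 0.310 with TRPV3, lowest in replicate 1. ACSS2 per ACLY was 0.289, 0.303 and 0.306 with mock and 0.437, 0.311 and 0.314 with TRPV3. ELOVL6 per FASN was 0.154, 0.157 and 0.142 with mock and 0.196, 0.160 and 0.159 with TRPV3. Both ratios lay above the mock range in all 3 TRPV3 libraries, by a small margin except in replicate 1. How often ratios of other genes separate the groups in this way was not counted.

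The genes around the pathway were followed in 7 lists of 127 genes. With all libraries limma called 0 of their tested members, near the background of 0.0411% of all genes. Of the 21 genes of SREBP and lipogenic control, 20 were tested. Of these, 1 had an unadjusted limma p under 0.05 (4.48% of all genes), 11 lay above 0 (53.0% of all genes) and the median was 0.06. Without TRPV3 replicate 1, 53.7% of all genes lay above 0. INSIG1, the sterol-regulated protein that holds SREBPs in the endoplasmic reticulum, was at 53.8, 50.1 and 49.6 FPKM under mock and 64.69, 63.75 and 59.96 FPKM under TRPV3. Its groups did not overlap, and the difference of 0.29 (SE 0.08, limma adjusted p = 0.755) was 0.27 without TRPV3 replicate 1. Among the 20 tested genes of this list, all TRPV3 libraries lay above the mock range in 3 (9.49% of all genes). They lay below it in 1 (5.39% of all genes). SREBF2, which encodes the factor of the cholesterol genes, was at 60.6 ± 0.233 and 56.8 ± 6.98 FPKM, with a difference of -0.10 that was 0.0047 without replicate 1.

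Supply, uptake and oxidation genes had medians slightly above 0 that were lower without TRPV3 replicate 1. The 14 genes of carbon and NADPH supply had a median of 0.10 with 12 above 0, and 0.03 with 9 above 0 without that library. IDH1, an NADPH-producing dehydrogenase, was at 98.7 ± 9.46 and 105 ± 8.48 FPKM, and MPC1, a subunit of the mitochondrial pyruvate carrier, at 5.92 ± 0.621 and 6.86 ± 1.35 FPKM. Their differences of 0.09 and 0.17 were 0.02 and 0.04 without TRPV3 replicate 1. The 21 tested genes of fatty acid oxidation had a median of 0.09 with 16 above 0, and -0.02 with 6 above 0 without replicate 1. ECHS1, a hydratase of that path with 1617 exonic bases, was at 142, 151 and 151 FPKM under mock and 220, 150 and 139 FPKM under TRPV3, high only in replicate 1. DECR1, a reductase needed for unsaturated chains, was at 4.42 ± 0.295 and 5.27 ± 0.845 FPKM. The difference of 0.20 in DECR1 was 0.10 without replicate 1. Of 15 genes of uptake and other acyl-CoA synthetases 7 were tested (median 0.07, and 0.02 without replicate 1). The most abundant of them was the acyl-CoA binding protein DBI. It was at 37.1, 37.9 and 30.7 FPKM under mock and 54.8, 37.6 and 38.4 FPKM under TRPV3. Its difference of 0.28, the largest of that list, was 0.11 without replicate 1.

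Other enzymes of the same steps also gave 0 calls, near the background of 0.0411% of all genes. Of 13 further elongation and desaturation genes 10 were tested, with a median of 0.07 and 7 above 0, and -0.02 with 4 above 0 without TRPV3 replicate 1. HACD2, a dehydratase of the elongation cycle, was at 37.1 ± 2.70 and 33.5 ± 4.57 FPKM, and CYB5R3, the reductase that feeds electrons to desaturases, at 39.7 ± 1.61 and 38.8 ± 0.622 FPKM. The difference of -0.15 in HACD2 was -0.03 without TRPV3 replicate 1. Of 15 further glyceride and ether lipid genes 10 were tested, with a median of -0.07 and 4 above 0, and 0.03 with 6 above 0 without that library. GNPAT, which starts ether lipid synthesis, was at 23.5 ± 0.313 and 24.9 ± 1.07 FPKM, and LPIN3 at 4.57 ± 0.266 and 3.90 ± 0.837 FPKM. The difference of -0.20 in LPIN3 was -0.08 without TRPV3 replicate 1.

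The genes of cholesterol synthesis, which respond mainly to SREBP-2, are set beside the fatty acid genes because both branches share regulators. All 24 were tested: 9 had an unadjusted p under 0.05 (4.48% of all genes), 21 lay above 0 (53.0% of all genes), the median was 0.22, and in 11 the TRPV3 libraries were all above the mock range (9.49% of all genes). For the 32 fatty acid, glyceride and wax genes the same counts were 1, 12 and 1, with a median of -0.01. Without replicate 1 the cholesterol genes had a median of 0.16, and voom called 3 of them (0.55% of all genes), HMGCS1 (0.40) and MSMO1 (0.30) included, against 0 of the 32. NSDHL, which removes methyl groups from sterol precursors, was at 19.6, 19.9 and 17.5 FPKM under mock and 29.5, 23.3 and 21.7 FPKM under TRPV3 (0.36, SE 0.12, limma adjusted p = 0.755). Its difference was 0.23 without TRPV3 replicate 1, and also 0.23 with the length trend removed. The difference between the 2 branches was not tested.

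**Figure D5:**
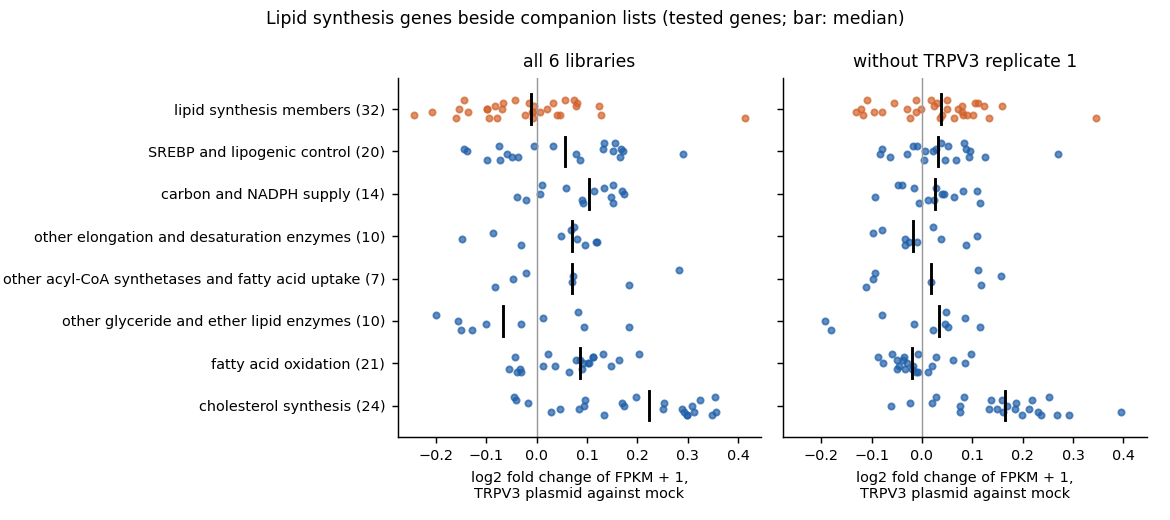
Log2 fold change of FPKM + 1, TRPV3 plasmid against mock, for each tested gene of the pathway (orange) and of 7 companion lists (blue), with the median as a black bar and the number of genes in brackets, from all 6 libraries (left) and without TRPV3 replicate 1 (right). The pathway's median lies at -0.01 and 0.04, and that of cholesterol synthesis at 0.22 and 0.16.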

How the data were processed

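RNA of 6 SZ95 libraries was measured by RNA-seq. Reads were aligned with HISAT2 2.0.5 to hg38, per the submitters' processing notes; the sources used here name neither the counting tool nor its strand setting. The deposited table holds FPKM per gene, per the file headers, with gene lengths and coordinates that equal those of GENCODE 29 for all 58735 genes. FPKM times length gave whole reads for 100% of values above 0 (tolerance 0.02 reads). Groups, replicate numbers and columns were matched through the labels.

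log2(FPKM + 1) was fitted with limma 3.58.1 in R 4.3.3 (group, empirical Bayes with trend) for the 12177 genes averaging 1 FPKM or more. Benjamini-Hochberg adjustment ran over all of them, with a threshold of 0.05. The fit was also run on simulated reads. These held larger changes than those of the members and no length trend or departing library, so they do not measure the fit on these libraries. Fold changes on this scale understate changes of low genes. Figures were drawn with matplotlib 3.10.9. The members and lists were chosen with earlier results of these data known. Values per library are given for the 8 most abundant tested members, the 6 with the largest differences and the first tested member of each step. From companion lists, the gene with the largest difference and the most abundant one are named, several with group means and SD only. Some genes that this rule or a count would name are not reported here. ME1, ACSS2, FADS2, FADS3, ELOVL7, AGPAT3 and other members outside that rule were named so that every member is covered, and voom calls and markers after their values were seen. Alternatives were other pseudocounts, filters, scalings, a replicate block, left-out libraries, removal of a length trend (lowess, span 0.3) and limma-voom on recovered reads. The voom fits took as library size the depth by which the FPKM were divided, so they share its departures from the recovered totals. Voom without TRPV3 replicate 1 was chosen after seeing the data.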

Additional observations from a re-analysis of the deposited data

How the results depend on the processing

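The count of 0 called members held under all 16 alternatives, and the lowest adjusted p of any member in any of them was 0.506, by limma without TRPV3 replicate 3. Signs were less stable: of the 32 genes, 9 changed sign under TPM scaling, 4 under quantile normalization, 11 with the length trend removed and 12 without TRPV3 replicate 1, and 10 kept their sign throughout. Among members whose main difference exceeded its SE, only ACACA changed sign, to 0.040 without TRPV3 replicate 1 by limma and to 0.044 by voom; with 1 library left out its limma values ran from -0.42 to 0.040. The members' median ran from -0.05 to 0.04 with 1 library left out, and was -0.11 under TPM scaling, where the median of all genes also fell. Over all genes, 5 were called; the number was 2 with no filter, 3 with a filter of 5 FPKM, 2 to 8 with 1 library left out and 67 by voom without TRPV3 replicate 1, which also called 3 companion genes. With the replicate number as a block (replicate block) 3 genes were called over all genes and 0 members. Same-numbered libraries had correlations of -0.27, -0.04 and -0.17 between their deviations from the group means. Deviations within a group sum to 0 and TRPV3 replicate 1 departed from its group, so these values cannot decide whether replicate numbers mark pairs. For genes near 1 FPKM, such as ELOVL3, read depth limits the precision.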
